A study of Homo sapiens with 6 samples.

Results

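The HOX cluster genes were taken as all protein-coding genes whose GENCODE symbol is HOXA, HOXB, HOXC or HOXD followed by a number. Those matched to a listed transcription unit (TU) numbered 37, 9 in HOXA, 10 in HOXB, 9 in HOXC and 9 in HOXD, among 19032 protein-coding TUs and 37339 matched TUs of all classes. The samples are 4 total RNA-seq libraries, made after rRNA depletion, and 2 PRO-seq libraries of K562, a human chronic myelogenous leukemia cell line, with no treatment. All 6 come from cells of 1 flask, so the spread between replicates is that of libraries and not of separate cultures or of other cell lines. PRO-seq sequences nascent RNA at engaged RNA polymerases and is read here as transcription, whereas RNA-seq measures steady-state RNA.

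HOX genes encode homeodomain transcription factors and lie in 4 clusters that arose by duplication of an ancestral cluster. Within a cluster the genes are read from the same strand, low numbers at the 3′ end and high numbers at the 5′ end, and in embryos the low numbers act towards the head and the high numbers towards the tail. Genes with the same number in different clusters are paralogs. In blood, several HOXA and HOXB genes are known for their activity in stem and progenitor cells, and HOX genes of the A cluster are known for high levels in many acute leukemias. KMT2A and its partners maintain HOX transcription, Polycomb complexes repress it, and PBX, MEIS and PKNOX proteins bind DNA together with HOX proteins.

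The 4 RNA-seq libraries held 5732780 to 9002746 counts on listed transcripts and the PRO-seq libraries held 6993816 and 7245632. RNA-seq replicates 1 and 3 were alike, as were 2 and 4. Rows naming no TU held 68.5% and 68.6% of records in the first pair and 66.5% in each of the second. HBG2 was at 5920 and 5912 TPM against 6501 and 6505 TPM. The methods do not say whether a pair shares a preparation, so an SD with n = 4 may rest on fewer independent preparations. Levels are given as TPM (transcript abundance per length), that is counts divided by TU length and scaled to the same total in each library. The length was that of the exons in RNA-seq and, in PRO-seq, the span of the TU without 500 bp at each end. Each erythroid marker of the list of 8 was above 1 TPM in RNA-seq (13.0 to 6223 TPM, HBZ the lowest and HBG2 the highest), and GATA1, the erythroid master regulator, was at 155 ± 15.0 TPM (SD, n = 4). Of the markers of other cells, CD3E and MS4A1 were under 1 TPM, as was COL1A1, whereas the myeloid genes LYZ and ITGAM were at 331 and 4.64 TPM and the epithelial gene EPCAM was at 119 TPM. In these bulk libraries, fewer cells with a transcript and less RNA in each cell cannot be told apart.

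Most HOX RNA, and nearly all HOX transcription that could be counted, lay in the HOXB cluster. Summed over its 10 members, HOXB reached 187, 183, 189 and 188 TPM in RNA-seq replicates 1 to 4, or 186 TPM from the summed counts (SD 2.83 over the libraries, n = 4). HOXC came second at 20.4, 22.8, 17.5 and 17.9 TPM (20.0 TPM from summed counts, SD 2.49), so that HOXB was 8.01 to 10.8 times as high in the same library. The 9 HOXA members together gave 0.313 TPM from 8 counts and the 9 HOXD members 0.263 TPM from 6 counts, over all 4 libraries. The libraries of HOXB, of HOXC and of HOXA and HOXD did not overlap, whereas HOXA, from 0 to 0.816 TPM, overlapped HOXD, from 0.236 to 0.279 TPM. HOXB thus made up 90.2% ± 1.10 of the summed HOX TPM (SD, n = 4).

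HOXB was also the highest cluster in nascent transcription. It summed to 472 and 521 TPM in PRO-seq replicates 1 and 2, against 5.25 and 8.75 TPM for HOXC, a ratio of 89.9 and 59.5. HOXA gave 6 counts and 1 count in the PRO-seq libraries, and no HOXD member had a PRO-seq count in either. For the 8 HOXD members with bases of their own in the counted region, 3 counts over both libraries would have been 0.183 to 4.71 TPM, so lower levels were not detectable at this depth. Such limits cover counting error only. HOXB held 98.5% and 98.3% of the HOX TPM in PRO-seq. These sums cannot be set beside the RNA-seq sums over all members, since 12 members, HOXC9 among them, had no base of their own in the counted region and no PRO-seq count. Over the 25 members with bases of their own, HOXB made up 98.4% to 98.8% of the RNA-seq TPM of the 4 libraries and was 75.4 to 113 times HOXC, a range that overlapped that of PRO-seq.

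**Figure D1:**
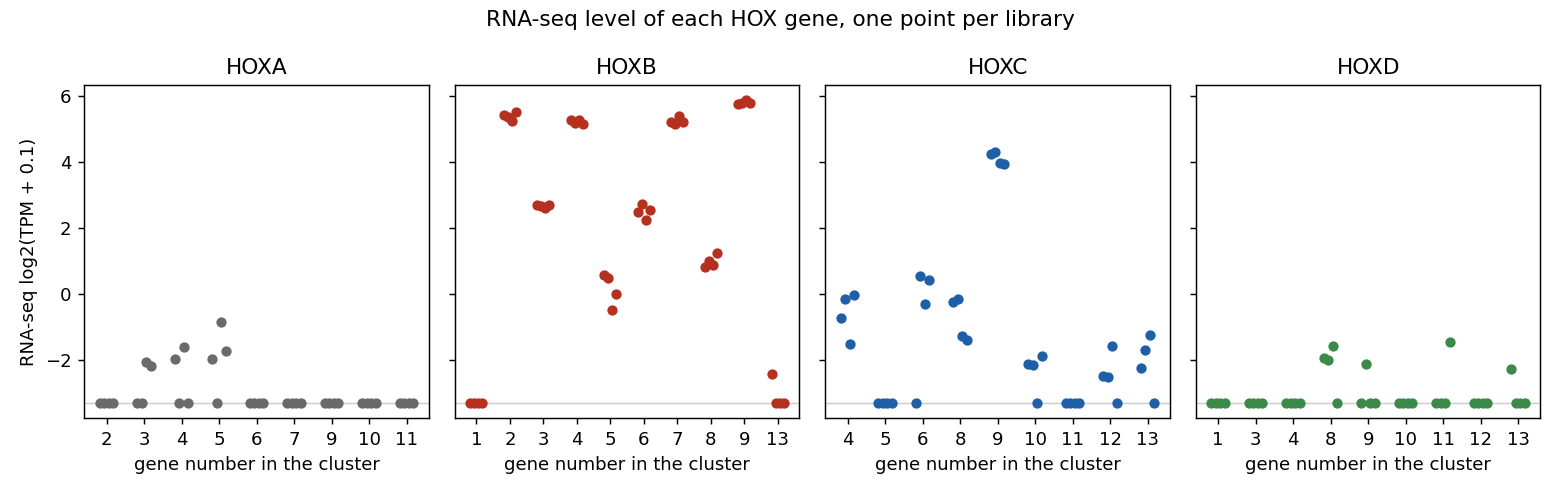
RNA-seq level of each of the 37 HOX genes on a log2(TPM + 0.1) scale, 1 panel per cluster, genes by number, 1 point for each of the 4 libraries; the grey line is 0 TPM. HOXB2, HOXB4, HOXB7 and HOXB9 lie between 35.2 and 58.6 TPM, HOXC9 between 15.3 and 19.5 TPM, and every gene of HOXA and HOXD lies near the line of 0.

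RNA-seq reads were found in at least 1 library for 23 of the 37 members, against 84.9% of all protein-coding TUs, and at least 10 counts for 11 members, against 62.3%. These were 8 HOXB members (HOXB2 to HOXB9) and 3 HOXC members (HOXC4, HOXC8 and HOXC9). Above 1 TPM were 9 members, the 8 of HOXB and HOXC9, against 55.3% of protein-coding TUs. The other 12 members with an RNA-seq count had 1 to 9 in all, and 12 members had no count in either assay. Both ends of the HOXB cluster had almost no reads, since HOXB1 had no count and HOXB13, which stands apart from the rest of the cluster, had 1. The cluster therefore had its signal in an unbroken run of neighbours from HOXB2 to HOXB9, with mean levels from 1.04 to 55.6 TPM within the run.

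HOXB9, the highest of all members, is a posterior gene of the cluster. It gave 547, 591, 400 and 430 counts, or 53.8, 55.1, 58.6 and 54.9 TPM, in RNA-seq replicates 1 to 4, a mean of 55.6 ± 2.07 TPM (SD, n = 4) that exceeded 84.2% of protein-coding TUs. Its lowest library lay above the highest library of every other member.

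HOXB2, an anterior gene known for its part in hindbrain patterning, followed with 42.4, 40.7, 38.1 and 45.8 TPM (mean 41.7 ± 3.21). HOXB7 gave 36.6, 35.2, 41.6 and 36.9 TPM (mean 37.6 ± 2.80), counted on a listed transcript of 528 exonic bases with no defined coding sequence. These are 34.7% of the exonic bases annotated for the gene. HOXB4, known for expanding hematopoietic stem cells when forced to high levels, gave 38.9, 36.0, 38.2 and 35.3 TPM (mean 37.1 ± 1.72). The libraries of HOXB2 and HOXB7 overlapped, as did those of HOXB7 and HOXB4, so that these 3 genes could not be ordered beyond their spread.

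A second tier lay lower. HOXB3 gave 6.40, 6.19, 5.95 and 6.40 TPM (mean 6.24 ± 0.212) and HOXB6 gave 5.45, 6.52, 4.64 and 5.73 TPM (mean 5.59 ± 0.777), with overlapping libraries. HOXB8, known from leukemia in mice in which its gene was switched on, gave 14, 17, 10 and 15 counts and 1.89 ± 0.280 TPM. HOXB5 gave 10, 10, 3 and 5 counts and 1.04 ± 0.356 TPM, with no library above the lowest of HOXB8. The lowest members of the run thus lay between higher neighbours, HOXB5 beside HOXB4 and HOXB6, and HOXB8 beside HOXB7 and HOXB9.

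Outside HOXB, 26 of the 27 members were under 1 TPM in RNA-seq. The exception was HOXC9, a paralog of HOXB9, with 43, 47, 24 and 27 counts, or 18.8, 19.5, 15.7 and 15.3 TPM (mean 17.3 ± 2.14, n = 4). It lay between the HOXB4 and HOXB3 levels without overlap with either. Replicates 1 and 2 were higher than replicates 3 and 4, which were also the less deeply sequenced libraries. HOXC8, its neighbour, showed the same split, with 7, 8, 2 and 2 counts and 0.531 ± 0.275 TPM. HOXC4 gave 3, 5, 1 and 4 counts and 0.602 ± 0.283 TPM, and its libraries overlapped those of HOXC8 and of HOXB5. HOXC10, on the other side of HOXC9, had 3 counts in all. HOXC9 is counted here on a listed transcript of 581 exonic bases with no defined coding sequence, 34.9% of the exonic bases annotated for the gene, and 459 of them are covered by no other listed TU on either strand. Whether RNA-seq reads were counted by strand is not stated, so part of this value cannot be told apart from antisense RNA.

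In HOXA, 3 members had RNA-seq counts, none over 0.174 TPM from the counts summed over libraries, and in HOXD 4 members, none over 0.136 TPM. The highest single library was 0.454 TPM, for HOXA5 in replicate 3 from 2 counts. A total of 3 counts would have been 0.0790 to 0.332 TPM for the HOXA members and 0.0856 to 0.510 TPM for those of HOXD, so levels of this size were at the limit of these libraries. HOXA9 and HOXA10, which are known for high levels in acute leukemias, had no count in any library of either assay. HOXA9 was counted on a listed transcript of 657 exonic bases, 21.7% of those annotated for the gene, and reads on its other exons were not counted for it. HOXA10 was counted on 1570 exonic bases, 42.4% of those annotated. Exonic bases covered by no other listed TU on their strand were 479 for HOXA9 and 1202 for HOXA10, and for HOXA10 594 with both strands considered. The RNA-seq zeros of the 2 genes thus rest on fewer bases, whereas the limits of 3 counts use all listed exonic bases. In PRO-seq HOXA9 had no base of its own and HOXA10 kept 248 of 8042 counted bases, so these PRO-seq zeros say little about transcription.

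The listed transcripts set what PRO-seq could see. Where the counted regions of 2 TUs overlap on a strand, the counting leaves a read in both unassigned, and 6.54% and 6.68% of the PRO-seq reads that fell on TUs were set aside as ambiguous in this way. For 12 members (HOXA4, HOXA5, HOXA6, HOXA9, HOXB4, HOXB8, HOXB9, HOXC5, HOXC6, HOXC8, HOXC9 and HOXD4), no base of the counted region belonged to that TU alone, and all 12 had a PRO-seq count of 0. Across the genome, among protein-coding TUs with at least 100 RNA-seq counts, 11 of 174 with no base of their own had any PRO-seq count, against 5692 of 5700 that no other TU overlapped. All 250 TUs overlapped on the opposite strand alone had PRO-seq counts. The zeros of HOXB4, HOXB8, HOXB9 and HOXC9 therefore give no transcription level, and no RNA-seq to PRO-seq ratio is given for them.

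In HOXB the listed transcripts of HOXB3 (chr17:46627174-46667603, minus strand, GRCh37, 40430 bp) and HOXB7 (chr17:46684989-46710934, minus strand, 25946 bp) are long forms that begin far upstream. HOXB4 (chr17:46652869-46655712) lies whole within the first, and HOXB8 (chr17:46689708-46692654) and HOXB9 (chr17:46698518-46703720) within the second. HOXB3 kept 35956 of 39430 counted bases to itself and HOXB7 kept 18796 of 24946. Polymerases that started at the HOXB3 promoter and polymerases that started at HOXB4 and ran on into HOXB3 cannot be told apart in these counts, and the same holds for HOXB7 with HOXB8 and HOXB9.

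**Figure D2:**
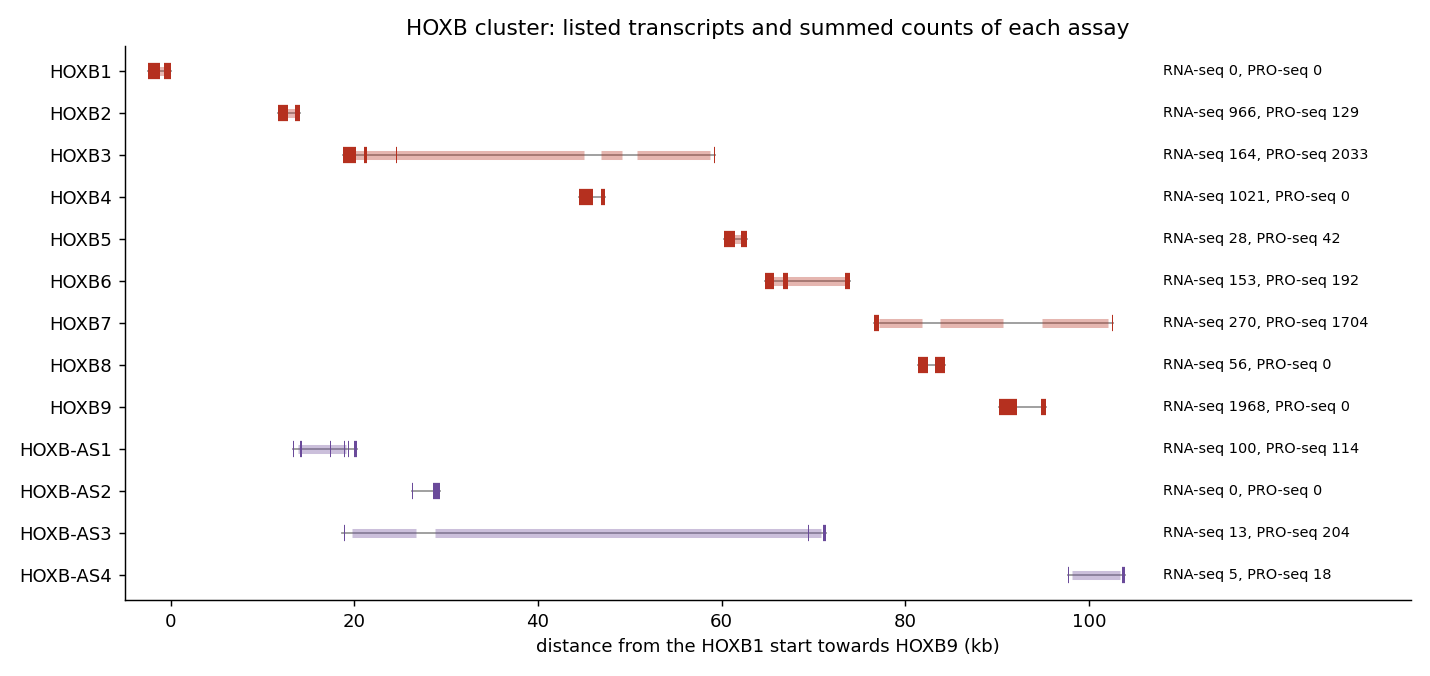
Map of the HOXB cluster by distance in kb from the start of HOXB1, without HOXB13, in GRCh37 annotation. Solid blocks are exons of the listed transcript, pale bars are counted PRO-seq bases of that TU alone on its strand, and thin lines are spans, with the counts summed over 4 RNA-seq and 2 PRO-seq libraries at the right. HOXB4, HOXB8 and HOXB9 have no pale bar and a PRO-seq count of 0 beside 1021, 56 and 1968 RNA-seq counts.

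Of the 25 members with bases of their own, 11 had at least 1 PRO-seq count, against 91.0% of protein-coding TUs with bases of their own, and 6 had at least 10, against 76.0%. The 6 were HOXB2, HOXB3, HOXB5, HOXB6, HOXB7 and HOXC4. HOXB2 was the highest, at 154 and 185 TPM from 58 and 71 counts, above 96.7% of protein-coding TUs. HOXB7 followed at 128 and 134 TPM from 823 and 881 counts, then HOXB3 at 94.1 and 103 TPM from 959 and 1074 counts. HOXB5 gave 55.9 and 49.8 TPM from 22 and 20 counts and HOXB6 gave 40.8 and 48.3 TPM from 87 and 105 counts. HOXC4 was far below them at 3.41 and 4.06 TPM, from 33 and 40 counts. No neighbours in this order overlapped, although each has only 2 libraries, and the 22 and 20 counts of HOXB5 are few to place it above HOXB6.

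**Figure D3:**
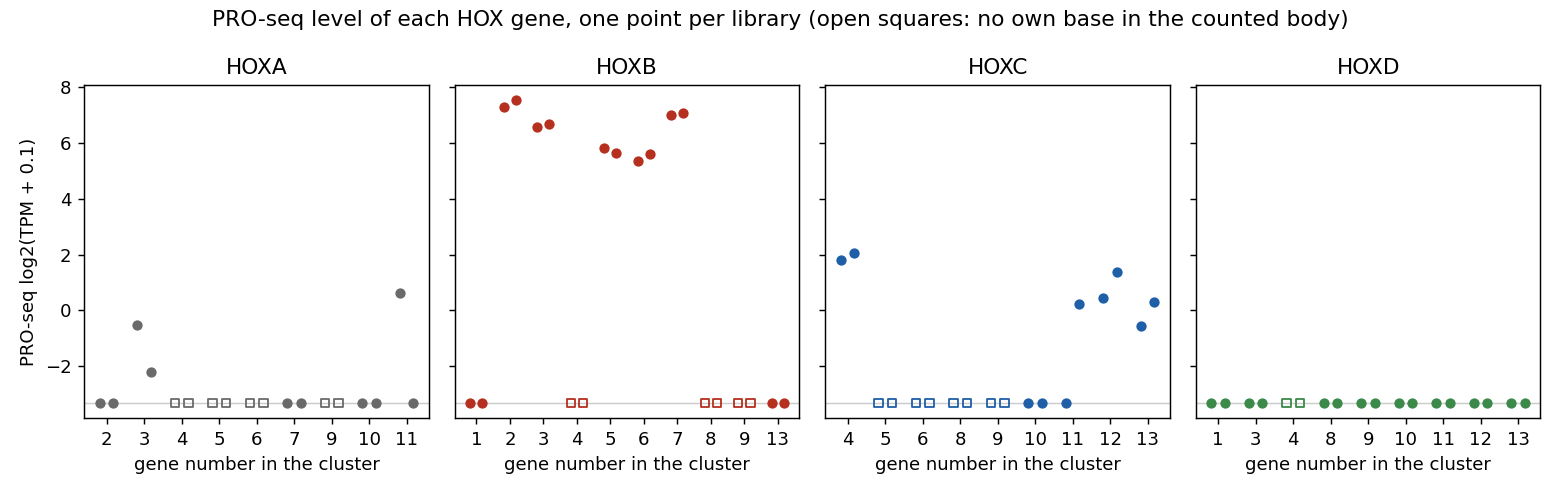
PRO-seq level of each HOX gene on a log2(TPM + 0.1) scale, 1 panel per cluster, 1 point for each of the 2 libraries; open squares mark genes with no base of their own in the counted region, and the grey line is 0 TPM. The 5 HOXB genes above the line lie between 40.8 and 185 TPM, HOXC4 at 3.41 and 4.06 TPM, and no HOXD gene leaves the line.

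By mean level the 6 genes kept nearly the same order in both assays, with HOXB5 and HOXB6 alone exchanged. In RNA-seq the libraries of HOXB2 and HOXB7, of HOXB3 and HOXB6, and of HOXB5 and HOXC4 overlapped, so these pairs were not ordered beyond their spread. The gaps between the means differed between the assays. HOXB3 and HOXB5 were transcribed at 98.7 and 52.8 TPM (means of 2 libraries) yet had 6.24 and 1.04 TPM of RNA, whereas HOXB7 was transcribed at 131 TPM and had 37.6 TPM of RNA. Relative half-life was taken as the ratio of RNA-seq to PRO-seq TPM, which assumes a steady state, and each TU was compared with the median mRNA with an RNA-seq level above 1 TPM and a PRO-seq level above 10 TPM (n = 8733). The ratio has no time unit.

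All 6 members with at least 10 PRO-seq counts had a ratio below that of the median mRNA (edgeR quasi-likelihood test, Benjamini-Hochberg adjustment over 21621 TUs). The median of their log2 differences was -2.11, beside -0.61 over the 14781 protein-coding TUs tested with bases of their own. A lower ratio was common, however, being called for 52.2% of these protein-coding TUs (55.7% of all TUs tested), and a higher ratio for 32.8% (25.6% of all TUs). A share of 6 of 6 is therefore read as a description of these genes and not as a property of the family.

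HOXB5 lay furthest below, with a log2 difference of -4.91 (SE 0.429, edgeR adjusted p = 1.1e-29), 30.0-fold under the median mRNA, and only 7.17% of the protein-coding TUs tested were lower. Its RNA level rests on 28 counts. HOXB3 came next at -3.32 (SE 0.102, adjusted p = 1.4e-232), 10.0-fold under, with 15.1% of protein-coding TUs lower. HOXB6 was at -2.32 (SE 0.181, adjusted p = 4.9e-37) and HOXC4 at -1.91 (SE 0.430, adjusted p = 1.5e-05). From summed counts HOXC4 was at 0.621 TPM in RNA-seq, from 13 counts, and 3.74 TPM in PRO-seq. It thus lies under both TPM limits of the mRNAs that set the median, which the other 5 members pass. HOXB2 and HOXB7 were the nearest to the median mRNA, at -1.37 (SE 0.162, adjusted p = 8.2e-17) and -1.16 (SE 0.0997, adjusted p = 1.2e-30), or 2.58- and 2.23-fold under it. This pair, of which 36.7% and 40.2% of protein-coding TUs were lower, therefore lay well inside the common range.

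Facts of the annotation bear on these ratios. Of the 37 listed transcripts, 15 are not MANE Select, the reference form of a gene, and 6 have no defined coding sequence, that of HOXB7 among them. The listed transcript of HOXB3 holds 25.7% and that of HOXB7 34.7% of the exonic bases annotated for the gene, and RNA-seq reads on the remaining exons were not counted for them. HOXB4, with 1021 RNA-seq counts, lies within the span of HOXB3, and HOXB8 and HOXB9, with 56 and 1968, lie within that of HOXB7. Polymerases that started at these genes may be counted in HOXB3 and HOXB7, so the 2 ratios may not be those of the HOXB3 and HOXB7 mRNAs alone. The lengths of HOXB2 and HOXB5 left for PRO-seq were 1455 and 1523 bp, so that the level of each depends on how many bases are left out at the ends, and with 500 bp removed in place of 1000 bp the summed PRO-seq level of HOXB was 422 TPM in place of 497 TPM. Their part in the differences between members was not tested.

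Summed over the members with bases of their own, a choice made after the overlap of the listed spans was seen, HOXB had a log2 relative half-life of -1.78 (replicate SD 0.106), or 3.44-fold under the median mRNA. Taking a single library of each assay at a time (8 combinations) gave -1.87 to -1.68. This sum leaves out the RNA of HOXB4, HOXB8 and HOXB9, whereas polymerases that started at them may be counted in HOXB3 and HOXB7. With all members HOXB was at -0.76 and HOXC at 2.16, shifts that the replicate SD does not cover. Over members with bases of their own, HOXC was at -2.20 (replicate SD 0.589), with combinations from -2.79 to -1.51. On these members the clusters did not differ beyond the spread between libraries. In HOXC, HOXC4 gave 3.74 of the 7.02 TPM of PRO-seq, and the rest came from HOXC11, HOXC12 and HOXC13 with 1 to 3 counts each. None is given for HOXA and HOXD, whose members had 7 and 0 PRO-seq counts.

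**Figure D4:**
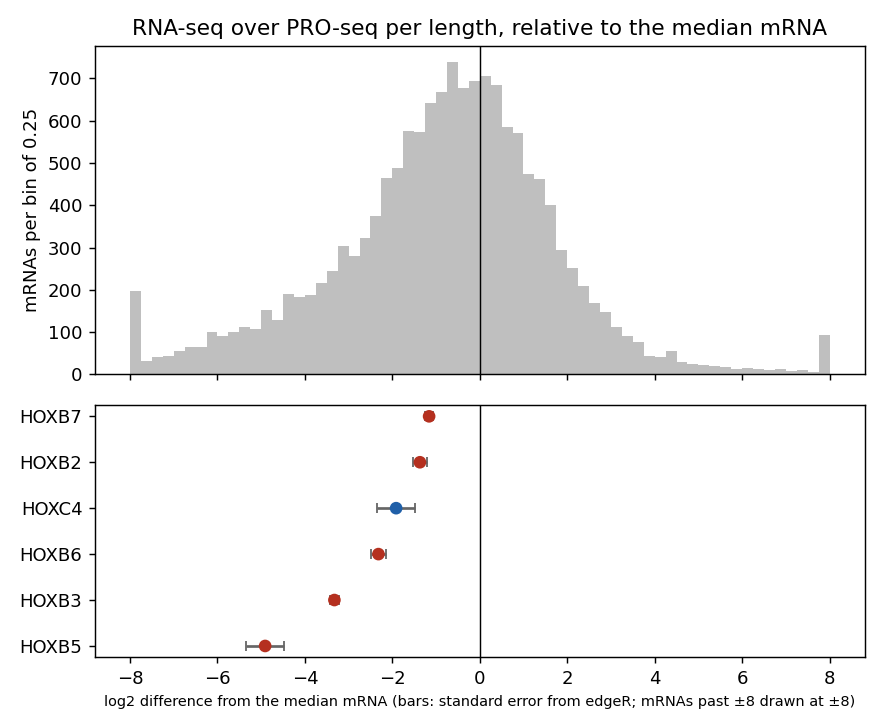
Log2 difference of RNA-seq over PRO-seq from the median mRNA. Above, the distribution over 14781 protein-coding TUs with bases of their own (values past 8 in either direction are drawn in the end bins). Below, the 6 HOX genes that could be estimated, HOXB in red and HOXC in blue, with standard errors from edgeR. All 6 lie left of 0, from -1.16 for HOXB7 to -4.91 for HOXB5.

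The clusters also carry microRNA genes, among them those of the miR-10 and miR-196 families, which are known to repress HOX mRNAs. Mature microRNAs are not measured by these libraries. MIR10A lies within the RefSeq HOXB3 gene, MIR196A1 within the listed span of HOXB7, MIR196A2 within that of HOXC6 and MIR196B within that of HOXA9, so that MIR10A and MIR196A1 lie in spans with PRO-seq counts, as does MIR615 in the listed span of HOXC4. Their mature 5′ arms from RefSeq (GRCh38.p14) are shown since sites for them occur in transcribed members, with the seed, bases 2 to 8, in capitals.
miR-10a-5p (chr17:48579904-48579926, minus strand): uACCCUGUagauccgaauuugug
miR-196a-5p (chr17:48632532-48632553, minus strand, and chr12:53991762-53991783, plus strand): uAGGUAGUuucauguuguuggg
miR-196b-5p (chr7:27169528-27169549, minus strand): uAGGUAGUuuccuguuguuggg

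The miR-196 arms share 1 seed, AGGUAGU. The match to the miR-10a seed, ACAGGGT, was found on the sense strand of the listed transcripts of 3 of 37 members (HOXA3, HOXB2 and HOXB5), against 17.9% of 19032 protein-coding TUs. The match to the miR-196 seed, ACTACCT, was found in 7 members (HOXA5, HOXA6, HOXA7, HOXB1, HOXB6, HOXB13 and HOXC8), against 16.1%. The sites in members with at least 10 RNA-seq counts are shown 5′ to 3′ as they lie opposite the microRNA, with the seed match in capitals, and with their position in the listed transcript.
HOXB2, base 1176 of 1682, coding sequence, for miR-10a-5p: cctctcccctagcctACAGGGTt
HOXB5, base 46 of 1859, 5′ UTR, for miR-10a-5p: cataaatcgtgaagcACAGGGTt
HOXB6, base 1770 of 1960, 3′ UTR, for miR-196a-5p and miR-196b-5p: tggaaggagcacatACTACCTa
HOXC8, base 1157 of 2417, 3′ UTR, for miR-196a-5p and miR-196b-5p: cactcacaactctaACTACCTg
HOXC8, base 1893 of 2417, 3′ UTR, for miR-196a-5p and miR-196b-5p: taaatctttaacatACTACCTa
HOXC8, base 2033 of 2417, 3′ UTR, for miR-196a-5p and miR-196b-5p: cagcgtattttatcACTACCTa

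Of the 6 members with an estimated ratio, HOXB2, HOXB5 and HOXB6 hold a seed match and HOXB3, HOXB7 and HOXC4 hold none in the listed transcript. The log2 differences given above overlap between these sets. With so few genes, sites in different regions and no microRNA measured, this overlap cannot inform on an effect of the microRNAs, which was not tested. Sites outside a listed transcript were not searched, and a match of letters does not show that a site is used. Only exact matches to the seed were sought, so a site with a mismatch or a G:U pair in the seed would be missed.

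Among the noncoding genes of the clusters, 11 of 17 matched had RNA-seq counts and 2 were above 1 TPM in RNA-seq, both in HOXB. HOXB-AS1, opposite the start of HOXB2 and the end of HOXB3, gave 27, 32, 21 and 20 RNA-seq counts (9.04 ± 0.808 TPM) and 54 and 60 PRO-seq counts (35.4 and 38.6 TPM). HOXB-AS3, whose listed span runs opposite HOXB3 to HOXB5 and part of HOXB6, gave 3, 4, 2 and 4 RNA-seq counts (2.19 ± 0.609 TPM) and 91 and 113 PRO-seq counts (6.81 and 8.29 TPM). In HOXC, HOXC-AS2, next to HOXC9, had 9 and 14 PRO-seq counts, which on its short counted region made 31.9 and 48.7 TPM, as high as HOXB-AS1, beside 7 RNA-seq counts in all (0.115 to 0.365 TPM in a library). HOTAIR, the antisense RNA of the HOXC cluster known from work on Polycomb, had 1 PRO-seq count and no RNA-seq count, and HOTTIP of HOXA had neither. Of all 21621 TUs tested, 55.7% were lower than the median mRNA, and 15069 of the 21621 were mRNAs. The share among noncoding TUs alone is not given. All 4 noncoding genes that could be tested with bases of their own were also lower (edgeR). Their log2 differences were -1.13 for HOXB-AS3, -1.38 for HOXB-AS1, -2.59 for HOXB-AS4 and -6.58 for HOXC-AS2 (median -1.98), and the antisense RNA-seq values carry the strand limit given for HOXC9.

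The low levels of HOXA and HOXD did not extend to most protein-coding TUs around them. Those taken lay up to 887000 bp from HOXA and 1039400 bp from HOXD. Among the 3 nearest protein-coding TUs on each side, 5 of 6 were above 1 TPM in RNA-seq around HOXA, 4 of 6 around HOXB, 5 of 6 around HOXC and 5 of 6 around HOXD. The homeobox genes next to HOXA and HOXD, EVX1 and EVX2, lay 57579 and 8759 bp away and had 0 and 3 RNA-seq counts. Beyond EVX1, HIBADH was at 51.5 ± 2.49 TPM, 340220 bp from HOXA. SKAP2, 105120 bp from HOXA on the other side, was at 10.5 ± 2.33 TPM. LNPK and MTX2 were at 38.5 ± 1.34 and 161 ± 2.86 TPM on either side of HOXD (SD, n = 4). Around HOXB the nearest genes were low, SKAP1 at 0.331 and TTLL6 at 0.0347 TPM, both under the mean of every member from HOXB2 to HOXB9, whereas the next genes out, SNX11 and CALCOCO2, were at 38.8 and 48.0 TPM.

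HOX cofactors were present unevenly. Of 9 matched, 6 were above 1 TPM, led by PBX2 at 101 ± 1.85 TPM, MEIS2 at 18.9 ± 1.33 TPM and MEIS1 at 9.36 ± 0.450 TPM, whereas PBX3, MEIS3 and PKNOX2 were under 1 TPM. Of these 9, 1 had a higher and 6 a lower ratio of RNA-seq to PRO-seq than the median mRNA (edgeR), beside 32.8% and 52.2% of protein-coding TUs, with a median log2 difference of -1.25 beside -0.61. Among activators of HOX transcription, 10 of 11 were matched. The subunits that the KMT2 complexes share included ASH2L at 76.9 ± 5.10, RBBP5 at 79.7 ± 2.53 and WDR5 at 60.6 ± 1.80 TPM. DPY30, another of them, was at 1.66 ± 0.579 TPM from 35 counts on its listed transcript. In PRO-seq that transcript was at 6.40 TPM by its counted span and 61.2 TPM by its 13200 own bases. Reads on other exons of the gene were not counted, so the low RNA level may not hold for DPY30 as a whole. PSIP1, which tethers KMT2A to chromatin, was at 69.5 ± 3.97 TPM, and KMT2A itself was at 7.00 ± 0.118 TPM. CDX1, CDX2 and CDX4, caudal homeobox activators of HOX genes, had no RNA-seq count. Of the 7 activators tested, 3 were higher and 3 lower than the median mRNA, against the same 32.8% and 52.2%, with a median log2 difference of -0.04.

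Of 18 Polycomb genes, 17 were matched and 16 were above 1 TPM. The core of the complex that methylates histone H3 at lysine 27 was at 109 ± 3.93 TPM for EZH2, its main methyltransferase, 114 ± 5.66 TPM for EED and 35.4 ± 1.43 TPM for SUZ12. Among subunits of the other complex, RNF2 was at 30.1 ± 0.615 and BMI1 at 56.1 ± 1.52 TPM. CBX7 was the 1 gene under 1 TPM, at 0.275 TPM beside 17.1 TPM of PRO-seq. Its RNA-seq value rests on 2 counts on the listed transcript, where 3 counts would have been 0.484 TPM. Of the 17 Polycomb genes tested, 6 were higher and 9 lower than the median mRNA, shares near the 32.8% and 52.2% of protein-coding TUs, with a median log2 difference of -0.31. These lists describe 1 cell line in 1 state, so they cannot be set against HOX levels across conditions.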

How the data were processed

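In all, 4 total RNA-seq and 2 PRO-seq libraries of K562 cells were analysed. The authors deposited raw read counts per transcript for each library, 1 listed transcript for most genes, with no normalization. Per the methods and the submitters' processing notes, reads were trimmed with Cutadapt, aligned to GRCh38 with HISAT2 and counted with HTSeq, on exons for RNA-seq and on the span without its ends for PRO-seq. No tool version is given in the sources used. Rows naming no TU held 66.5% to 68.6% of records in RNA-seq and 86.5% and 88.6% in PRO-seq and were left out. Transcripts were joined by identifier to GENCODE on GRCh37 (37339 of 42371), the source of lengths and coordinates of genes, which can differ from those counted. HOX promoters of HOXB2 to HOXB13 and HOX proteins were not analysed here.

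TPM was computed per library, and from counts summed over libraries for cluster sums. edgeR (version 4.0.16, R 4.3.3) quasi-likelihood tests were fitted to TUs with at least 10 counts over the 6 libraries, with TMM, offsets for length, and centring on the median mRNA. DESeq2 (version 1.42.0) was an alternative, as were other lengths, filters, scalings and each library left out. The fit was tested on simulated data. Python 3.11.15 was used elsewhere. Members with at least 10 counts in an assay are named with values. Members and lists (cofactors, activators, Polycomb, cell markers, noncoding and flanking genes) were chosen with earlier results of these data known. Reads carry no molecular identifiers, so they are not independent molecules, and the libraries come from 1 flask, so p-values measure the spread between libraries.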

Additional observations from a re-analysis of the deposited data

How the results depend on the processing

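The 6 members with bases of their own were called lower than the median mRNA in each of the alternatives fitted (15 each, 14 for HOXC4, which does not reach the TPM filter), with log2 differences from -1.48 to -0.78 for HOXB2, -3.41 to -2.74 for HOXB3, -5.06 to -4.33 for HOXB5, -2.42 to -1.73 for HOXB6, -1.52 to -0.57 for HOXB7 and -2.44 to -1.34 for HOXC4. The median of all mRNAs tested was -0.57, and centring on it moved the differences of these 6 members up by 0.58. PRO-seq and RNA-seq libraries of the same number did not deviate together (r = -0.07 over 8634 TUs), and with the replicate block 6 members were lower and 3 higher. With RNA-seq replicates 1 and 3 summed, and 2 and 4 summed, 6 members were lower and 4 higher. The 4 members with no base of their own (HOXB4, HOXB8, HOXB9 and HOXC9) were formally called higher, and this count was 0 with own bases as length and 0 under the TPM filter, since these members then drop out. HOXB8 lost its call with DESeq2, with the replicate block and without either PRO-seq replicate. The summed RNA-seq level of HOXB was 161 CPM without length, 180 TPM with own bases as length and 131 TPM without HOXB9. Its PRO-seq level was 296 CPM without length, 447 TPM with own bases, 422 TPM with 500 bp removed and 327 TPM without HOXB2. The log2 relative half-life of HOXB was -2.24 without length, -1.92 with own bases, -1.64 with 500 bp removed, -2.05 without its highest member and -0.76 with all members, an alternative added after seeing the data. HOXC had 6.65 CPM of RNA-seq without length and 2.36 TPM without HOXC9, and 3.28 TPM of PRO-seq without HOXC4. Its log2 relative half-life reversed to 2.16 with all members, since HOXC9 then adds RNA while it has no base of its own in PRO-seq and a count of 0. Members with RNA-seq counts fell from 23 to 11, and with PRO-seq counts from 11 to 6, at a minimum of 10 counts. Depth limits HOXA, HOXD and most of HOXC, where a member had under 10 counts.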
